A study of Sus scrofa with 15 samples.

Results

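The 9 genes described here are the core genes of de novo fatty acid synthesis, named by symbol for their role in the pathway, with earlier results of these data known: *FASN*, *ACACA*, *ACLY*, *ACSS2*, *ELOVL6*, *SCD*, *SREBF1*, *MLXIPL* and *THRSP*. They are 9 of the 30477 genes listed in the deposited count files, and all 9 were among the 14918 genes tested. Expression was measured by RNA-seq in backfat, the subcutaneous fat of the back, of Iberian pigs, a fat breed. The control (C) group received a compound feed, the dry olive pulp (DOP) group received a compound feed containing olive pulp, and the wet crude olive cake (WCOC) group received a compound feed together with olive cake silage offered without restriction. The experiment held 44 pigs, and 15 libraries were deposited, 5 for each diet.

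De novo fatty acid synthesis turns carbon from glucose and acetate into fatty acids, and in pigs the adipose tissue is its principal site. Citrate and acetate are first converted to cytosolic acetyl-CoA, acetyl-CoA carboxylase makes malonyl-CoA, and fatty acid synthase builds palmitate from both at the expense of NADPH. Elongation and desaturation then give stearate and oleate. The transcription factors encoded by *SREBF1* and *MLXIPL* are the known insulin-responsive and glucose-responsive activators of these genes, and *THRSP* encodes a nuclear lipogenic protein induced by thyroid hormone and carbohydrate.

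All pigs of a diet were kept in 1 pen without individual feeders, feed was restricted to a different degree in the control pigs, and the sequenced samples were selected on RNA quantity and quality, so diet, pen and intake cannot be told apart. Each library held between 22373715 and 34745218 counts assigned to genes. All 5 DOP libraries and control library 5 came from 1 flow cell (B), while control libraries 1 to 4 and all 5 WCOC libraries came from the other (A). Of 11 matched adipocyte genes none was at 0, and their summed level was 17747 to 23153 CPM (counts scaled to library size, with TMM factors) in C, 20393 to 26475 in DOP and 18966 to 26952 in WCOC. The 10 matched skeletal muscle genes, of which *TNNI2* was at 0 in every library, summed to 54 to 4776 CPM in C, 40 to 59754 CPM in DOP and 21 to 892 CPM in WCOC, with over 1000 CPM in control libraries 1 and 3 and DOP libraries 2, 4 and 5. The 13 matched macrophage genes summed to 289 to 853 CPM in C, 197 to 496 CPM in DOP and 142 to 384 CPM in WCOC. In bulk tissue, fewer cells of a type and less RNA per cell cannot be told apart.

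On the Sscrofa11.1 build, 4 of the 9 genes lie on chromosome 12: *FASN* at chr12:922405-937560 on the plus strand, *ACLY* at chr12:20796678-20841301 on the plus strand, *ACACA* at chr12:38580916-38875067 on the minus strand and *SREBF1* at chr12:60733967-60750951 on the plus strand. The others are *ACSS2* at chr17:38260152-38315764 on the plus strand, *ELOVL6* at chr8:112038670-112190079 on the plus strand, *SCD* at chr14:111461560-111478033 on the plus strand, *MLXIPL* at chr3:10898675-10934257 on the minus strand and *THRSP* at chr9:12479913-12484323 on the plus strand. *ACACA* overlaps the oppositely oriented gene *C12H17orf78*, and *ELOVL6* overlaps the oppositely oriented *LOC110261988*. The alignment was set for strand-specific reads, but the strand setting of the counting was not given in the sources used here, so reads of these 2 pairs may not be separable.

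The 250 bases before the annotated start of a gene are shown for the 3 genes called lower in WCOC than in C (*FASN*, *ACLY* and *ELOVL6*) and for *SCD*, the most abundant of the 9. Each is given 5′ to 3′ on the strand of the gene, with CCAAT boxes (CCAAT or its complement ATTGG) and GC boxes (GGGCGG or CCGCCC) in capitals.

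FASN, chr12:922155-922404, plus strand: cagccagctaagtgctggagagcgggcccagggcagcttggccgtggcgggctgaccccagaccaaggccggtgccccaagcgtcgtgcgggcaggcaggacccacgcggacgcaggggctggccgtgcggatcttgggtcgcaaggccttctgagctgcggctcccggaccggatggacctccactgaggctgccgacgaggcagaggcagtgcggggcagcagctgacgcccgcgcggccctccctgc

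ACLY, chr12:20796428-20796677, plus strand: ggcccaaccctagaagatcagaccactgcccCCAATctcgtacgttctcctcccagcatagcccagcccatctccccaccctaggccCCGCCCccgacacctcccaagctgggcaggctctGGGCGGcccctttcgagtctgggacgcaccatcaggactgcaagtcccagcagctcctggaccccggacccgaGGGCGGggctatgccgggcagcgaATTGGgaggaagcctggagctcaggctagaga

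ELOVL6, chr8:112038420-112038669, plus strand: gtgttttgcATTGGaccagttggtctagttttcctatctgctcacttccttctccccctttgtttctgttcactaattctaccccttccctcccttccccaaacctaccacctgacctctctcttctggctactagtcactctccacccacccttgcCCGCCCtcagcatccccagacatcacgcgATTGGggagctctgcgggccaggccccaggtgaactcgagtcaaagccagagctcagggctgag

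SCD, chr14:111461310-111461559, plus strand: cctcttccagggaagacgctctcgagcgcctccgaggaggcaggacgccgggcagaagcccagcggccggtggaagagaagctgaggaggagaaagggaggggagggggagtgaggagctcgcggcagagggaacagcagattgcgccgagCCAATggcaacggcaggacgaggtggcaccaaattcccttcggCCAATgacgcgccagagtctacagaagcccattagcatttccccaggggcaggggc

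A CCAAT box, the sequence bound by NF-Y, was present on either strand in 4 of the 9 windows (*ACLY*, *ELOVL6*, *SCD* and *THRSP*), against 31.9% of 19544 gene starts. These 19544 are protein-coding genes on chromosomes whose window held no unresolved base. In *SCD* the matches start 99 and 56 bases before the gene start, both on the gene's strand. In *ELOVL6* they start 241 and 64 bases before it and in *ACLY* 32 bases before it, on the opposite strand, with a further *ACLY* match on the gene's strand 219 bases before the start. A GC box, the sequence bound by SP1, was present in 5 of 9 (*ACACA*, *ACLY*, *ACSS2*, *ELOVL6* and *SREBF1*), against 45.9% of the 19544 starts. The sterol regulatory element TCACNCCAC occurred in 0 of 9 (0.803% of the 19544 starts), the E-box CACGTG in 0 of 9 (6.39%) and the carbohydrate response element (ChoRE, searched as a pair of spaced E-box-like parts) in 0 of 9 (0.0205%). These matches describe letters in a fixed window and locate no bound site.

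The 9 genes together took 8.52% ± 1.64 (SD, n = 5) of all gene counts in C, 8.07% ± 1.30 (SD, n = 5) in DOP and 5.31% ± 1.92 (SD, n = 5) in WCOC. The single WCOC libraries ranged from 3.39% to 8.08%, a range that overlaps the 6.78% to 10.6% of the controls.

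Levels of the 9 genes were compared with each other after division by length, as CPM per kilobase of annotated exon. In control pigs the order was *SCD* (6490 ± 1242 CPM per kilobase, SD, n = 5), *THRSP* (4684 ± 1451), *FASN* (3748 ± 1403), *ACLY* (1193 ± 419), *ELOVL6* (1080 ± 275), *ACSS2* (292 ± 84.7), *ACACA* (158 ± 41.3), *MLXIPL* (110 ± 18.9) and *SREBF1* (102 ± 21). The neighbours *THRSP* and *FASN*, *ACLY* and *ELOVL6*, and *MLXIPL* and *SREBF1* differed by less than the smaller of their 2 SDs. *ACACA*, which makes the malonyl-CoA that fatty acid synthase consumes, was the lowest of the 6 enzymes on this scale.

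**Figure D1:**
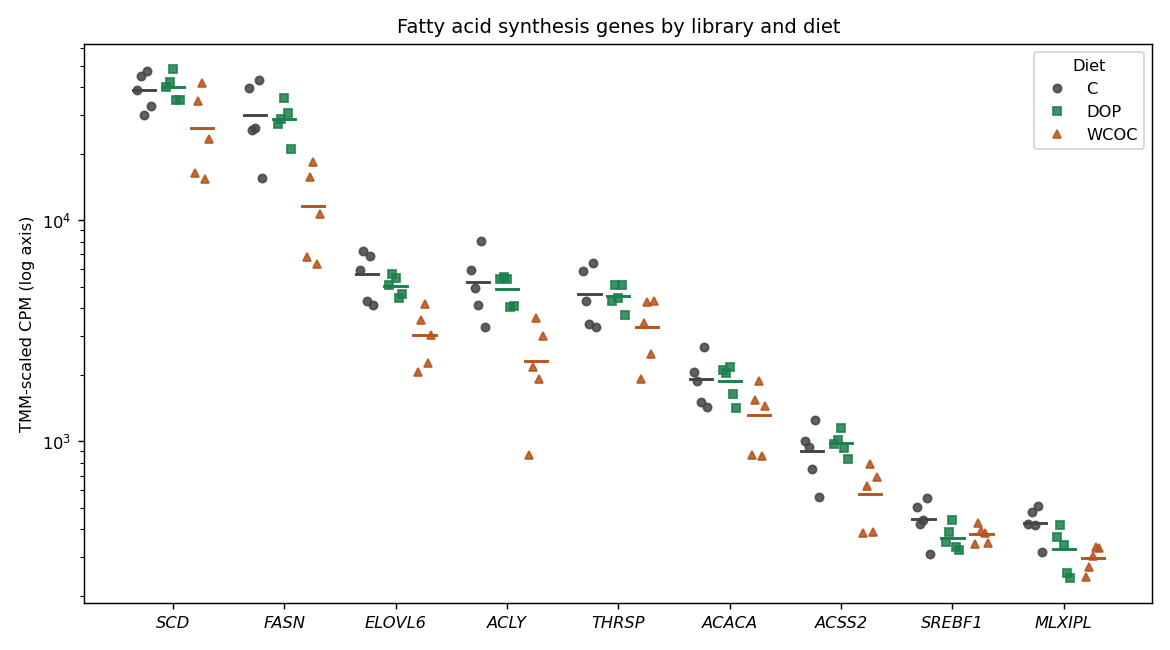
TMM-scaled CPM (log axis) of the 9 genes in every library, by diet; each point is 1 library and each line the mean of 5. The WCOC points of FASN, ACLY, ELOVL6 and ACSS2 all lie below the DOP points, while those of SREBF1 sit within the range of the other diets.

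Between WCOC and control pigs, *FASN*, *ACLY* and *ELOVL6* fell and the other 6 genes did not pass the test (called at an adjusted p under 0.05 by edgeR's quasi-likelihood test with Benjamini-Hochberg adjustment and an absolute log2 fold change, log2FC, of at least 0.58). The mean level fell to 0.385 of the control level for *FASN*, 0.438 for *ACLY* and 0.528 for *ELOVL6*. The called share was 3 of 9, where 6.25% of all tested genes were called in this comparison and 3.93% were called lower. All 9 log2FC values were below 0, with a median of -0.56, against a median of 0.00433 and 49.4% below 0 over all tested genes, and 6 of the 9 had an unadjusted edgeR p under 0.05, against 26.4% of all tested genes in either direction. For none of the 9 were the 2 groups free of overlap (3.87% of all genes lay wholly lower in WCOC).

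*FASN*, whose product carries out the whole cycle of palmitate synthesis, stood at 39775, 25676, 26171, 43009 and 15589 CPM in control libraries 1 to 5. It stood at 6811, 15723, 18376, 6313 and 10640 CPM in WCOC libraries 1 to 5. Control library 5 was the lowest control and lay below 2 of the WCOC libraries, so that the groups overlapped through this 1 library and WCOC libraries 2 and 3. The mean was 30044 ± 11245 CPM (SD, n = 5) in C and 11573 ± 5355 CPM in WCOC, a log2FC of -1.38 (SE 0.33, 95% interval -2.08 to -0.67, edgeR adjusted p = 0.0192).

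Of the enzymes that supply acetyl-CoA, *ACLY*, ATP citrate lyase, fell with *FASN*. Its level was 5973, 4933, 4124, 8080 and 3284 CPM in control libraries 1 to 5 and 871, 2172, 3613, 1916 and 2995 CPM in WCOC libraries 1 to 5. Only WCOC library 3 reached the control range, and WCOC library 1 was the lowest of all 15. The log2FC was -1.19 (SE 0.32, 95% interval -1.87 to -0.51, edgeR adjusted p = 0.0302). *ACSS2*, the cytosolic acetyl-CoA synthetase that uses acetate, had 1006, 938, 752, 1247 and 557 CPM in C and 383, 630, 793, 390 and 691 CPM in WCOC. Its log2FC of -0.64 (95% interval -1.13 to -0.15) did not pass the adjusted threshold (edgeR adjusted p = 0.0898), while DESeq2 called it (log2FC -0.65, DESeq2 adjusted p = 0.0348).

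*ACACA*, acetyl-CoA carboxylase alpha, had 2056, 1875, 1506, 2666 and 1424 CPM in C and 866, 1539, 1877, 854 and 1444 CPM in WCOC. WCOC libraries 1 and 4 lay below all controls and the other 3 lay inside their range. The log2FC was -0.53 (95% interval -1.03 to -0.03, edgeR adjusted p = 0.163), and no call was made. The *ACLY* estimate of -1.19 lies outside this interval, while the *ACLY* interval (-1.87 to -0.51) holds the *ACACA* estimate. Whether the 2 genes differ in their change was not tested.

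Of the enzymes that act on palmitate, *ELOVL6*, the elongase that makes stearate, fell. Its level was 5952, 7285, 4309, 6906 and 4120 CPM in control libraries 1 to 5 and 2058, 3551, 4192, 2266 and 3026 CPM in WCOC libraries 1 to 5. WCOC libraries 1, 2, 4 and 5 lay below every control, and WCOC library 3 passed control library 5 by under 100 CPM. The log2FC was -0.92 (SE 0.21, 95% interval -1.37 to -0.47, edgeR adjusted p = 0.0163). *SCD*, the delta-9 desaturase that makes oleate, had 38690, 44875, 29850, 47057 and 32958 CPM in C and 16367, 34609, 41535, 15373 and 23340 CPM in WCOC. WCOC libraries 2 and 3 lay among the controls, and the log2FC of -0.56 (95% interval -1.12 to 0.00373) was not called (edgeR adjusted p = 0.192).

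The 3 regulators gave no call between WCOC and C. *SREBF1* had 503, 422, 438, 555 and 311 CPM in C and 345, 426, 394, 385 and 346 CPM in WCOC, with no WCOC library below the lowest control and a log2FC of -0.23 (95% interval -0.53 to 0.06, edgeR adjusted p = 0.303). *MLXIPL*, which encodes ChREBP, had 421, 478, 417, 509 and 315 CPM in C and 243, 269, 303, 333 and 328 CPM in WCOC. Its log2FC of -0.54 (95% interval -0.89 to -0.18) missed both the fold limit and the adjusted threshold (edgeR adjusted p = 0.0517). *THRSP* had 5880, 4289, 3377, 6429 and 3281 CPM in C and 1903, 3432, 4247, 2489 and 4290 CPM in WCOC, a log2FC of -0.51 (95% interval -1.02 to 0.00940, edgeR adjusted p = 0.197). The counts do not separate the transcript variants of *SREBF1*, and they carry no information on protein processing or nuclear entry.

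Control library 5 was the lowest control for 8 of the 9 genes and control library 4 the highest for 8. The exceptions were *SCD*, lowest in control library 3, and *ELOVL6*, highest in control library 2. WCOC library 1 was the lowest of its group for 6 genes and library 4 for the other 3, and WCOC library 3 was the highest for 6. Control library 5 is also the only control from flow cell B, and it had the highest macrophage sum of all libraries (853 CPM). Without it, 5 of the 9 genes were called, *ACSS2* (log2FC -0.77, edgeR adjusted p = 0.0485) and *MLXIPL* (-0.63, edgeR adjusted p = 0.0339) besides the 3 above. Within flow cell A, where 4 controls met all 5 WCOC libraries, the log2FC values were -1.55 for *FASN* (edgeR adjusted p = 0.0426), -1.03 for *ELOVL6* (0.0456), -0.64 for *MLXIPL* (0.0217) and -1.33 for *ACLY* (0.0635), and the first 3 were called. Without the 5 libraries holding over 1000 CPM of muscle genes, which left 3 controls, the 3 log2FC values were -1.29, -1.24 and -1.02 for *FASN*, *ACLY* and *ELOVL6*, and 0 genes were called (adjusted p of 0.125, 0.125 and 0.0683).

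**Figure D2:**
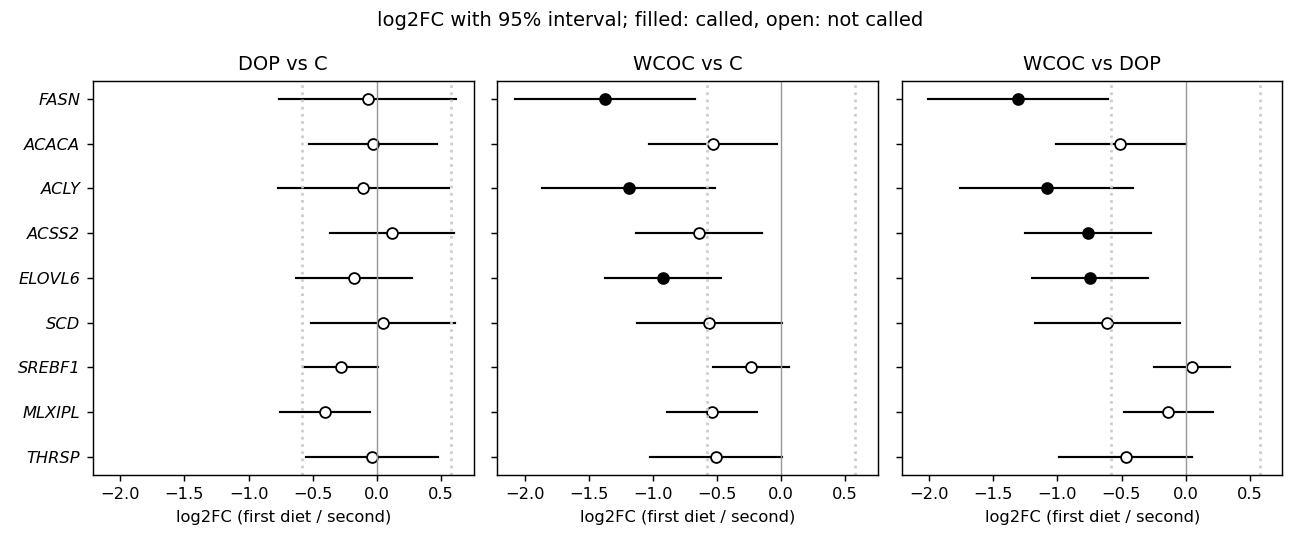
log2FC of the 9 genes with 95% intervals in the 3 comparisons (edgeR; filled points are called, dotted lines mark the fold limit of 0.58 on either side). The FASN, ACACA, ACLY, ACSS2 and ELOVL6 intervals lie wholly below 0 in both comparisons with WCOC. So do that of MLXIPL in WCOC vs C and that of SCD in WCOC vs DOP. In DOP vs C the interval of MLXIPL alone excludes 0.

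Between DOP and control pigs, 0 of the 9 genes were called in either direction by edgeR, where 0.764% of all tested genes were. The log2FC values lay between -0.40 and 0.12 with a median of -0.07, 7 of the 9 below 0 (47.8% of all genes were below 0). *MLXIPL* was the 1 gene with an unadjusted edgeR p under 0.05 (17.6% of all genes were), and 0 of the 9 lay wholly below the controls (1.76% of all genes did). The alternatives with DESeq2 and with limma-voom also called 0 of the 9. The 95% intervals reached from -0.77 (*ACLY*) to 0.62 (*FASN*), so they leave room for a change past the fold limit in some genes.

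*FASN* had 27339, 28641, 35528, 30625 and 20992 CPM in DOP libraries 1 to 5, all within the range of the controls, and its log2FC was -0.07 (95% interval -0.76 to 0.62). *SCD* had 39995, 42137, 48099, 35024 and 35102 CPM, a log2FC of 0.05 (-0.51 to 0.61). *MLXIPL* had 368, 419, 339, 253 and 242 CPM, with DOP libraries 4 and 5 below every control, and a log2FC of -0.40 (95% interval -0.75 to -0.05, edgeR adjusted p = 0.226). These were 2 of the 3 DOP libraries with over 1000 CPM of muscle genes (7774 and 59754 CPM). The other, DOP library 2 (12261 CPM), had the highest *MLXIPL* level of the group. Without the 5 muscle-rich libraries the *MLXIPL* log2FC was -0.30, and the part of muscle in it was not tested. *SREBF1* had 350, 389, 439, 334 and 322 CPM, a log2FC of -0.28 (95% interval -0.58 to 0.01, edgeR adjusted p = 0.309). The remaining 5 genes had log2FC values between -0.17 (*ELOVL6*) and 0.12 (*ACSS2*). With 1 control in flow cell B, this comparison and the flow cell cannot be told apart; a fit with flow cell as a term moved *FASN* to 0.88 (edgeR adjusted p = 0.582).

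The spread between pigs differed between the groups as a description. The coefficient of variation was lowest in DOP for 7 of the 9 genes, with a median over the genes of 13.6% in DOP, 26.1% in C and 32.4% in WCOC. *FASN* varied 1.69-fold between the lowest and the highest DOP library, 2.76-fold among controls and 2.91-fold in WCOC, and *ACLY* varied 4.15-fold in WCOC. *SREBF1* and *MLXIPL* were the exceptions, with their smallest variation in WCOC (9.08% and 13.1%).

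The direct comparison of the olive diets shares its WCOC libraries with the first comparison and its DOP libraries with the second. *FASN*, *ACLY*, *ACSS2* and *ELOVL6* were lower in WCOC than in DOP, 4 of the 9, where 7.76% of all genes were called and 5.11% were called lower. Of the 9, 6 had an unadjusted edgeR p under 0.05 (28.1% of all genes), and for the same 4 no WCOC library reached the DOP range, against 4.77% of all genes. The log2FC was -1.31 for *FASN* (SE 0.33, edgeR adjusted p = 0.0223) and -1.09 for *ACLY* (SE 0.32, edgeR adjusted p = 0.0380). *ACSS2* stood at 967, 1010, 1150, 936 and 830 CPM in DOP, above all WCOC values, with a log2FC of -0.76 (SE 0.23, edgeR adjusted p = 0.0424). *ELOVL6* stood at 5072, 5703, 5464, 4435 and 4640 CPM in DOP, with a log2FC of -0.75 (SE 0.21, edgeR adjusted p = 0.0353). The other 5 log2FC values were -0.61 for *SCD*, -0.51 for *ACACA*, -0.47 for *THRSP*, -0.13 for *MLXIPL* and 0.05 for *SREBF1*. All WCOC libraries came from flow cell A and all DOP libraries from flow cell B. With flow cell as a term, estimated through the controls alone, *FASN* was at -2.42 and 0 of the 9 were called. Leaving out WCOC library 1 or 4, or the 5 muscle-rich libraries (*FASN* at -1.45 with 2 DOP libraries left), also left 0 calls, and 1 call stood without DOP library 1, 2, 3 or 5.

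*FASN* and *SCD*, the most abundant enzymes, did not keep 1 ratio across diets. The number of *FASN* counts per *SCD* count within a library was 1.03, 0.572, 0.877, 0.914 and 0.473 in control libraries 1 to 5. It was 0.684, 0.680, 0.739, 0.874 and 0.598 in DOP libraries 1 to 5 and 0.416, 0.454, 0.442, 0.411 and 0.456 in WCOC libraries 1 to 5. All 5 WCOC values lay below the lowest control (0.473) and the lowest DOP value (0.598), and they were the closest to each other, with a mean of 0.436 ± 0.0213 (SD, n = 5) against 0.773 ± 0.238 in C and 0.715 ± 0.102 in DOP. A ratio within a library does not depend on the scaling of libraries. The log2 ratio was lower by -0.77 in WCOC than in C and by -0.70 than in DOP (both p = 0.00794, exact two-sided permutation test, n = 5 per diet, the smallest p the design allows; Benjamini-Hochberg adjusted p = 0.0138 over 26 ratio tests). These ratios were chosen after the values had been seen.

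**Figure D3:**
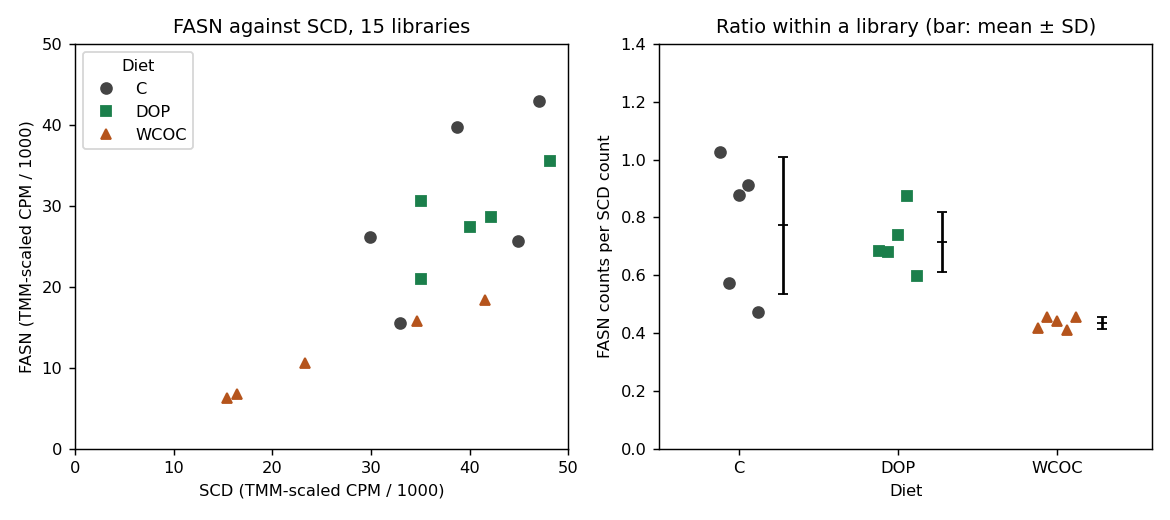
FASN against SCD in TMM-scaled CPM divided by 1000 (left) and FASN counts per SCD count (right; bars are mean ± SD of 5 libraries) for the 15 libraries. The 5 WCOC ratios lie between 0.411 and 0.456, below those of both other diets, although the WCOC SCD levels range from 15373 to 41535 CPM.

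The same test was run on the other ratios. In WCOC the log2 ratio of *FASN* to *ACACA*, *ACSS2*, *THRSP* and *SREBF1* was lower than in C by -0.85, -0.76, -0.90 and -1.21 and lower than in DOP by -0.86, -0.60, -0.89 and -1.47 (each exact permutation p = 0.00794, adjusted p = 0.0138). The ratio of *FASN* to *ACLY* differed by -0.14 from C (exact permutation p = 0.611) and by -0.19 from DOP (p = 0.516, exact permutation test), within the replicate spread. The ratio of *FASN* to *ELOVL6* differed by -0.48 from C with overlapping groups (exact permutation p = 0.0794, adjusted p = 0.103), and it was lower than in DOP by -0.63 (exact permutation p = 0.00794, adjusted p = 0.0138). *ACLY* relative to *SREBF1* was lower in WCOC by -1.06 than in C and by -1.28 than in DOP (each exact permutation p = 0.00794). *SCD* relative to *SREBF1* differed by -0.44 from C (exact permutation p = 0.159) and by -0.77 from DOP (exact permutation p = 0.0159, adjusted p = 0.0229). *ACACA*, *ACSS2* and *THRSP* relative to *SREBF1* differed from C by -0.36, -0.44 and -0.31 (exact permutation p = 0.19, 0.0952 and 0.262). *ELOVL6* differed from C by -0.72 (exact permutation p = 0.0159). From DOP, *ACACA*, *ACSS2*, *ELOVL6* and *THRSP* differed by -0.61, -0.87, -0.84 and -0.58 (exact permutation p = 0.0159, 0.00794, 0.00794 and 0.0635).

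Within diets the enzymes varied together from pig to pig. After centring log2 CPM on the mean of each diet, the 21 pairs among the 6 enzymes and *THRSP* had Pearson r between 0.70 and 0.95 (median 0.86, n = 15 libraries), and all 21 passed at an adjusted p under 0.05 over the 36 pairs by both Pearson and Spearman permutation tests. The highest was *ACACA* with *ACSS2* (r = 0.945, permutation p = 1e-05, the smallest 100000 resamples can give, adjusted p = 0.00036; rho = 0.929, adjusted p = 0.00162). *FASN* and *ACSS2* gave r = 0.926 (permutation, adjusted p = 0.00103; rho = 0.868, adjusted p = 0.005), and *ELOVL6* and *SCD* gave r = 0.921 (permutation, adjusted p = 0.00103; rho = 0.939, adjusted p = 0.00162). Without the 2 libraries farthest on the first gene of a pair the 21 values of r lay at or above 0.52 with a median of 0.85, and within flow cell A they lay between 0.71 and 0.99 (9 libraries). Within a library all genes share its depth and scaling, and high shares of a few genes enter every CPM.

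The 7 pairs of *SREBF1* with the enzymes and *THRSP* had r from 0.48 (*SCD*) to 0.75 (*FASN*), all 7 passing the adjusted permutation tests, and within flow cell A r ran from 0.43 to 0.67. The 7 pairs of *MLXIPL* had r from 0.30 (*SCD*) to 0.64 (*ACLY*). Of these 4 passed by Pearson and 1, with *ACLY*, by Spearman (rho = 0.646, permutation, adjusted p = 0.0161), and within flow cell A r ran from 0.07 to 0.69. Whether the correlations of the activators are weaker than those among the enzymes was not tested. Both genes were the lowest of the 9 per kilobase, with at least 8725 counts in every library for *SREBF1* and 6736 for *MLXIPL*.

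**Figure D4:**
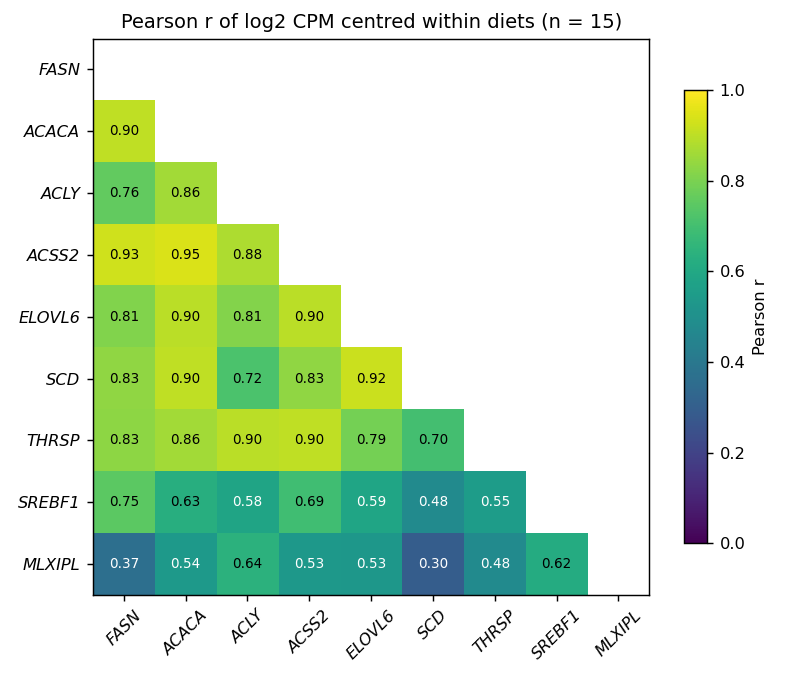
Pearson r between the 9 genes over 15 libraries, on log2 CPM centred within each diet; colour and printed number give r. The block of 6 enzymes and THRSP lies between 0.70 and 0.95, the rows of SREBF1 and MLXIPL between 0.30 and 0.75.

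Among 11124 other genes with a symbol and a mean of at least 1 CPM, the 5 whose diet-centred level was most like the mean standardised level of the 9 genes included *ME1* (Pearson r = 0.948 over 15 libraries, the highest), *PPARD* (0.902), *HK2* (0.899) and *PYM1* (0.879), given as a description. *ME1* encodes cytosolic malic enzyme, a source of NADPH for fatty acid synthesis. It stood at 1653, 1934, 1498, 2310 and 905 CPM in C, at 1417, 1578, 1547, 1221 and 927 CPM in DOP and at 328, 560, 1006, 358 and 591 CPM in WCOC. As for *FASN*, control library 5 was the lowest control and WCOC library 3 the highest of its group. *ME1* fell between C and WCOC (log2FC -1.55, SE 0.30, edgeR adjusted p = 0.00739), while *PYM1* had a log2FC of 0.04 (edgeR adjusted p = 0.827).

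The neighbours of the pathway were read from 9 lists of 100 genes, of which 93 were matched and 91 tested. Between WCOC and C 11 were called lower and 0 higher, against 3.93% of all genes lower and 2.33% higher. Between DOP and C 2 were called lower and 0 higher (0.55% and 0.215% of all genes), and between WCOC and DOP 13 were lower and 1 higher (5.11% and 2.65%). Without the 5 muscle-rich libraries the 3 numbers called lower were 4, 0 and 0, and with flow cell as a term 14, 1 and 0.

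Of the 8 genes for NADPH and the export of citrate, 3 fell between C and WCOC, among them *ME1* and *SLC25A1* (log2FC -0.93, SE 0.27, edgeR adjusted p = 0.0402), the mitochondrial citrate carrier. All 8 had log2FC values below 0, with a list median of -0.54 against 0.00433 over all genes. Against DOP the same 3 were lower, together with *IDH1* (-0.73, edgeR adjusted p = 0.00812) and *MDH1* (-0.65, edgeR adjusted p = 0.0360), which is 5 of 8. *SLC25A1* stood at 409, 521, 482, 506 and 360 CPM in DOP and 120, 222, 279, 130 and 210 CPM in WCOC, with no overlap. Between DOP and C 0 of 8 were called by edgeR, DESeq2 or limma-voom, and 0 had an unadjusted p under 0.05.

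*MID1IP1*, the paralogue of *THRSP* whose product binds acetyl-CoA carboxylase, was the 1 neighbour called in both olive diets. It stood at 248, 194, 260, 277 and 195 CPM in C, at 160, 135, 112, 130 and 129 CPM in DOP and at 75, 158, 145, 118 and 153 CPM in WCOC, so that every olive-fed library lay below every control. The log2FC was -0.82 in DOP (SE 0.18, edgeR adjusted p = 0.0452) and -0.85 in WCOC (SE 0.18, edgeR adjusted p = 0.00986), both against the same controls. The call in DOP was lost with adipocyte scaling, with limma-voom and with flow cell as a term. In DOP against C 0 of all tested genes were called without control library 3 or 5, without DOP library 2 or 4, or without the 5 muscle-rich libraries, and the call in WCOC was lost without those 5 as well. *MID1IP1* was the only call against C among the 11 tested genes of the list of other acetyl-CoA, malonyl-CoA and mitochondrial fatty acid synthesis, and *CBR4*, of the mitochondrial pathway, was the only one lower in WCOC than in DOP (-0.65, edgeR adjusted p = 0.0369). *AACS*, which had the highest CPM of this list (not divided by length, here and for the lists that follow), had a log2FC of -0.02 between WCOC and C.

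Of 5 tested genes of SREBP processing, *INSIG1*, which retains the SREBP precursor in the endoplasmic reticulum and is itself a target of SREBP, fell in WCOC (log2FC -0.77, SE 0.11, edgeR adjusted p = 0.00133). Its control values were 291, 228, 226, 267 and 222 CPM and its WCOC values 141, 141, 133, 143 and 167 CPM, without overlap. Of 14 tested sterol genes 3 fell in WCOC against C, among them *HMGCS1* (-0.71, edgeR adjusted p = 0.0192), of cholesterol synthesis, and the sterol transporter gene *STARD4* (-1.23, edgeR adjusted p = 0.0101). In that comparison 13 of the 14 log2FC values were below 0, with a median of -0.53. An unadjusted edgeR p under 0.05 was found for 9 of them (26.4% of all genes). In DOP against C 1 fell, *SQLE*, squalene epoxidase (-1.01, SE 0.15, edgeR adjusted p = 0.0268), a call also lost in the fits that called 0 genes. There 12 of the 14 values were below 0, with a median of -0.34 against 0.0114 over all genes. Of the 14, 7 had an unadjusted edgeR p under 0.05 (17.6% of all genes). *SQLE* was higher in WCOC than in DOP (0.80, edgeR adjusted p = 0.00542), where *DHCR7* was lower (-0.85, edgeR adjusted p = 0.0352). *IDI1*, with the highest CPM of this list, had a log2FC of -0.98 between WCOC and C and was not called (edgeR adjusted p = 0.109).

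In the carbohydrate response list 2 of 9 fell between C and WCOC, the hexokinase gene *HK2* (-0.63, edgeR adjusted p = 0.0478) and *ARRDC4* (-0.70, edgeR adjusted p = 0.0144), a target of ChREBP. Against DOP *ARRDC4* (-0.62, edgeR adjusted p = 0.0223) and *SLC2A4*, the insulin-responsive glucose transporter gene (-0.67, edgeR adjusted p = 0.0483), were lower. None of the 13 LXR, thyroid hormone and other upstream regulator genes was called by edgeR in any of the 3 comparisons, nor by DESeq2 or limma-voom. An unadjusted edgeR p under 0.05 was found for 2 of them in DOP against C (17.6% of all genes). The number was 0 in WCOC against C (26.4%) and 1 in WCOC against DOP (28.1%). *THRA*, a thyroid hormone receptor gene named after its values were seen, missed only the fold limit in DOP against C (0.49, edgeR adjusted p = 0.0277) and in WCOC against DOP (-0.35, edgeR adjusted p = 0.0138). Their median log2FC between WCOC and C was 0.04, and -0.13 with adipocyte scaling. *RXRA*, with the highest CPM of them, stood at 419 ± 46.6 CPM (SD, n = 5) in C and 437 ± 51.1 CPM in WCOC.

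Downstream of synthesis, 1 of 11 genes of fatty acid activation and triglyceride assembly was called, *ACSL1*, a long-chain acyl-CoA synthetase gene. It had 1854, 1704, 1535, 2150 and 1338 CPM in C, 1903, 2213, 2230, 2656 and 2267 CPM in DOP and 585, 862, 1237, 500 and 1514 CPM in WCOC. It was lower in WCOC than in C (-0.87, SE 0.26, edgeR adjusted p = 0.0442) and than in DOP (-1.26, SE 0.26, edgeR adjusted p = 0.00872). *DGAT2*, which encodes the final enzyme of triglyceride synthesis and had the highest CPM of the list, had a log2FC of -0.39 between WCOC and C (edgeR adjusted p = 0.349). Of 13 other desaturases and elongation genes *HSD17B12*, of the elongation cycle, was lower in WCOC than in DOP (-0.83, edgeR adjusted p = 0.0151). Against C 0 were called in either diet, and DESeq2 also called 0. An unadjusted edgeR p under 0.05 was found for 5 of 13 in DOP (17.6% of all genes) and 3 of 13 in WCOC (26.4%). *HACD3*, named after its values were seen, missed only the fold limit in WCOC against C (-0.22, edgeR adjusted p = 0.0397). *ELOVL5*, with the highest CPM of this list, had a log2FC of -0.17 between WCOC and C.

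**Figure D5:**
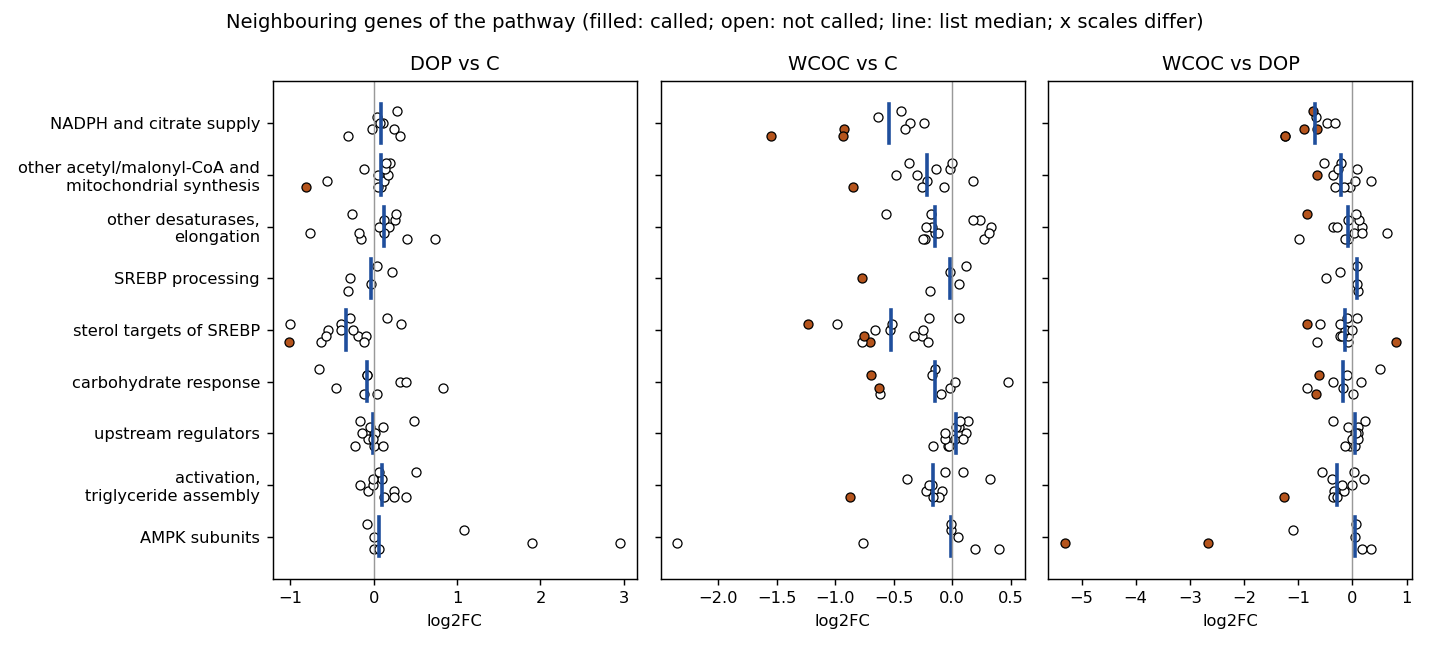
log2FC of the 91 tested neighbouring genes in 9 lists and 3 comparisons (edgeR; each point is 1 gene, filled when called, and the vertical line is the list median; the horizontal scale differs between panels). The NADPH and citrate list has its median at -0.54 in WCOC vs C, and the upstream regulators hold no filled point in any panel.

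Of the 7 AMPK subunit genes, *PRKAA2* (-2.66, SE 0.65, edgeR adjusted p = 0.0189) and *PRKAG3* (-5.31, SE 1.55, edgeR adjusted p = 0.0378) were lower in WCOC than in DOP. *PRKAA2* stood at 65.8 ± 84.4 CPM (SD, n = 5) in DOP and 10.4 ± 0.46 CPM in WCOC, and *PRKAG3* at 23.6 ± 39.9 and 0.588 ± 0.585 CPM. The 7 genes summed to 614 CPM in DOP library 5 and to between 196 and 266 CPM in the other DOP libraries. Both are known to be abundant in skeletal muscle. The 9 tested muscle genes had a median of -5.83, with 6 of 9 called lower, and the part of muscle in the 2 differences was not tested. Of all tested genes, 5.11% were called lower in WCOC than in DOP. *PRKAG2*, the subunit gene with the highest mean CPM in C, had a log2FC of 0.40 between WCOC and C (edgeR adjusted p = 0.0508).

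Marker genes of other cells changed between WCOC and C beside the lipogenic genes. Of all tested genes, 3.93% were called lower and 2.33% higher in this comparison. The calls over all genes numbered 933, and 354 without the 5 muscle-rich libraries. Of 13 tested macrophage genes 6 fell, with a list median of -1.19, and 3 of 9 fibroblast and adipose progenitor genes fell, *COL1A1*, *COL1A2* and *LUM*, with a list median of -0.52. Of 8 endothelial genes 2 rose, *CLDN5* and *ERG*. Of 11 adipocyte genes 1 rose, *ADIPOQ*, the adiponectin gene (0.66, SE 0.17, edgeR adjusted p = 0.0281), and 0 were called lower. The list median was 0.16, and 4 of the 11 log2FC values were below 0, among them *LPL* (-0.40) and *CIDEC* (-0.39). The median of the summed adipocyte level was 23121 CPM in WCOC and 18997 CPM in C. Libraries were also scaled to the mean log count of the adipocyte genes, which weights each gene equally, rather than to this sum. With it *FASN*, *ACLY* and *ELOVL6* stayed called, and *ACSS2* (-0.76, edgeR adjusted p = 0.0358) and *MLXIPL* (-0.67, edgeR adjusted p = 0.0392) were added. That scaling moved the median of all genes by -0.16 on the log2 scale. T cell and B cell genes summed to at most 33 and 19 CPM, with *CD79A* at 0 in every library. The 7 matched epidermal genes summed to 84.5 CPM in WCOC library 2 and 122 CPM in WCOC library 5, and to between 1.69 and 37.5 CPM in the other 13 libraries, and 1 of them, *KRT1*, was higher in WCOC than in DOP. The part of these cell markers in the lipogenic differences was not tested.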

How the data were processed

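Backfat RNA was sequenced as paired-end libraries of 15 pigs. The deposited files hold raw read counts per Ensembl gene, made by the authors with HISAT2 and HTSeq on the Sscrofa11.1 build. HISAT2 was run with default settings for strand-specific reads. Versions, annotation release and the strand option of HTSeq are not given in the sources used here. The 5 summary lines of each file (23.4% to 32.8% of its total) were left out, and 0 columns of per-sample values were unused. Gene names and exon lengths came from RefSeq: 14864 of 30477 identifiers had a symbol.

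Genes were filtered with edgeR 4.0.16 (filterByExpr), scaled by TMM and tested in 1 quasi-likelihood fit over all 15 libraries with diet as the term and Benjamini-Hochberg adjustment over 14918 genes (common dispersion 0.0814). Replicates are libraries of separate pigs, 5 per diet, and p-values do not cover the pen. CPM values are scaled by TMM. Ratios used exact permutation tests, and correlations 100000 permutations. Flow cells were read from run identifiers. The fit was tested on simulated counts.

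The members and lists were chosen with earlier results of these data known. Named genes are the 9 members, list genes called in any comparison with the gene of highest CPM in each list, and the 5 most similar genes, and some genes that meet this rule are not reported here. Per-library values were added for *ME1*, *SLC25A1*, *MID1IP1*, *INSIG1* and *ACSL1* after their results were seen. Other scalings, filters, DESeq2, limma-voom, left-out libraries and flow cell fits were run as alternatives. The promoter windows were read from RefSeq gene starts on Sscrofa11.1.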

Additional observations from a re-analysis of the deposited data

Results flagged for a closer look

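The direct WCOC against DOP comparison is the test of whether the 2 olive diets differ in their effect relative to the shared controls. By edgeR's adjusted p it separated the diets for *FASN* (log2FC -1.31), *ACLY* (-1.09), *ACSS2* (-0.76) and *ELOVL6* (-0.75) among the members. It also separated them for *ME1* (-1.23), *IDH1* (-0.73), *SLC25A1* (-1.25) and *MDH1* (-0.65) of NADPH and citrate supply, and for *CBR4* (-0.65), *HSD17B12* (-0.83), *DHCR7* (-0.85), *ARRDC4* (-0.62), *SLC2A4* (-0.67) and *ACSL1* (-1.26). *PRKAA2* (-2.66) and *PRKAG3* (-5.31) were separated alongside the muscle genes, and *SQLE* (0.80) in the opposite direction. The flow cell also separates all WCOC from all DOP libraries, so it and the diet cannot be told apart in these values. No library stood apart from its group for any of the 9 members by Dixon's test over 27 groups of 5.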

How the results depend on the processing

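The number of members called was 0 of 9 for DOP against C in all 13 alternatives and all 15 fits without 1 library. For WCOC against C it was 3, and became 5 with adipocyte scaling, 5 with flow cell as a covariate, 1 with the replicate block and 0 without the 5 muscle-rich libraries, an alternative chosen after seeing the data that leaves fewer samples. It ran from 2 to 5 without 1 library, with 5 without control library 5. *ELOVL6* stayed called in each of these except the fit without the muscle-rich libraries. *FASN* was lost without WCOC library 1 (adjusted p = 0.0546), and *ACLY* without control library 1 or 4 or WCOC library 4 (0.0545, 0.0686 and 0.0709) and with only the 2 diets (0.0612). With the block *FASN* had an adjusted p of 0.0524 and *ACLY* of 0.0840. For WCOC against DOP the number was 4, and became 2 with no filter on low counts, 0 with the replicate block, 0 with flow cell as a covariate and 0 without the muscle-rich libraries. It ran from 0 to 4 without 1 library: 0 without WCOC library 1 or 4, 1 without DOP library 1, 2, 3 or 5, and 2 without DOP library 4 or WCOC library 2 or 5. The replicate numbers did not pair the samples: 3 of 15 same-number correlations were over 0.1, and 1 of 15 libraries correlated best with its own number. The block left 0 calls over all genes for DOP against C (114 without it), 473 for WCOC against C (933) and 561 for WCOC against DOP (1158). The uncalled DOP against C values changed sign with flow cell as a covariate: *FASN* 0.88, *ACACA* 0.39, *ACLY* 0.58, *ELOVL6* 0.30, *SREBF1* 0.24, *MLXIPL* 0.0395 and *THRSP* 0.47. Without the muscle-rich libraries *FASN* was at 0.16 and *ACACA* at 0.10. *SREBF1* between WCOC and DOP was at -0.0834 with adipocyte scaling, -0.58 with flow cell and -0.0585 without the muscle-rich libraries. Leaving out 1 library, the range was -0.234 to 0.0929 for *FASN*, -0.11 to 0.12 for *ACACA*, -0.24 to 0.10 for *ACLY*, -0.0109 to 0.265 for *ACSS2*, -0.0356 to 0.129 for *SCD* and -0.14 to 0.10 for *THRSP* in DOP against C, and -0.000198 to 0.12 for *SREBF1* in WCOC against DOP. Over all genes DOP against C gave 114 calls, 509 with DESeq2, 19 with limma-voom, 2 with only the 2 diets, and 0 to 200 without 1 library. The all-gene numbers were 354 for WCOC against C and 92 for WCOC against DOP without the muscle-rich libraries, and 1 for WCOC against DOP with flow cell as a covariate. With no limit on log2FC they were 1493 and 1842. Where no construction shows it, the cause was not tested. With 5 pigs per diet the SE of *FASN* in WCOC against C was 0.33 on the log2 scale, with counts of at least 198746 per library. What limited the calls was not tested.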
